A study of Mus musculus with 8 samples.

Results

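The genes examined were 10 ligands that tumor or immune cells display to inhibitory receptors of T cells, natural killer cells and macrophages: Cd274 (PD-L1), Pdcd1lg2 (PD-L2), Cd276 (B7-H3), Cd47, Cd200, Pvr, Nectin2, Lgals9 (galectin-9), Cd80 and Cd86. They were given by name, and 10 of 10 were among the 15193 genes, of 35419 with a symbol, that passed the filter on low counts. Total RNA was measured by RNA-seq in 8 subcutaneous tumors grown in female A/J mice from 1000000 injected cells of the murine neuroblastoma line Neuro-2a (N2A). Once tumors were palpable, 4 mice (tumors 0 to 3) received vehicle (physiological solution) and 4 mice (tumors 1 to 4) received SR59230A (10 mg/kg), which blocks the β3-adrenergic receptor, both as 2 intraperitoneal injections a day for 8 days. The mice were 4 weeks old when bought, all groups carried the same single line without an engineered allele, and the hosts were immunocompetent. The study asked whether blocking the receptor lowers PD-L1 in these tumors, and the question here is whether the RNA of Cd274 or of any other ligand differed between the treatments.

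PD-L1 and PD-L2 bind PD-1 on activated T cells and restrain them, and interferon-gamma is the best known inducer of PD-L1. CD47 signals to SIRPα on macrophages and blocks engulfment, and CD200 restrains myeloid cells through CD200R. PVR and nectin-2 are ligands of a receptor family with the inhibitory TIGIT, CD96 and PVRIG and the activating CD226, not all of which bind both. Galectin-9 is a ligand of TIM-3, and CD80 and CD86, mostly made by antigen-presenting cells, bind both the activating CD28 and the inhibitory CTLA-4. In bulk tumor RNA, fewer cells of a type and less RNA per cell cannot be told apart, and tumor cells and host cells are read together.

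Estimated counts summed to 23484190 to 44045575 per tumor. The tumors expressed the neuroblastoma markers Phox2a (mean 68.4 ± 13.0 CPM with vehicle and 56.8 ± 4.59 with SR59230A, SD, n = 4 each), Stmn2, Th and Mycn as the label of the line has it. Some libraries stood apart. The predicted gene Gm10800 took 9.46% to 15.0% of TPM in vehicle tumors 0 and 3 and SR59230A tumor 4 and at most 1.40% in the other 5, and the muscle gene Ttn reached 1365 CPM in SR59230A tumor 1 and 127 CPM in SR59230A tumor 2 against at most 16.1 CPM elsewhere. TPM (scaled by transcript length to a fixed sum in each tumor) was therefore used to order genes within tumors, and CPM (counts per 1000000, scaled by TMM factors between libraries) to compare tumors.

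The ligands spanned a wide range, with Cd47 at the top and Cd80 at the bottom. Mean TPM over the 8 tumors was 96.0 ± 23.4 (SD) for Cd47, 23.8 ± 6.13 for Lgals9, 11.3 ± 3.06 for Nectin2, 11.0 ± 3.04 for Cd276, 6.44 ± 1.11 for Pvr, 5.88 ± 2.48 for Cd274 and 4.13 ± 1.93 for Cd200. Cd86 (0.601 ± 0.235), Pdcd1lg2 (0.439 ± 0.23) and Cd80 (0.291 ± 0.141) were all under 1 TPM. Cd47 alone made up 55.7% to 62.4% of the summed TPM of the 10 ligands in every tumor, and its mean level was 16.3 times that of Cd274. Cd47 was first and Lgals9 second in each of the 8 tumors. Cd274 ranked from 3 to 7 depending on the tumor, the widest span of any ligand, and its rank 3 was in vehicle tumor 3.

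**Figure D1:**
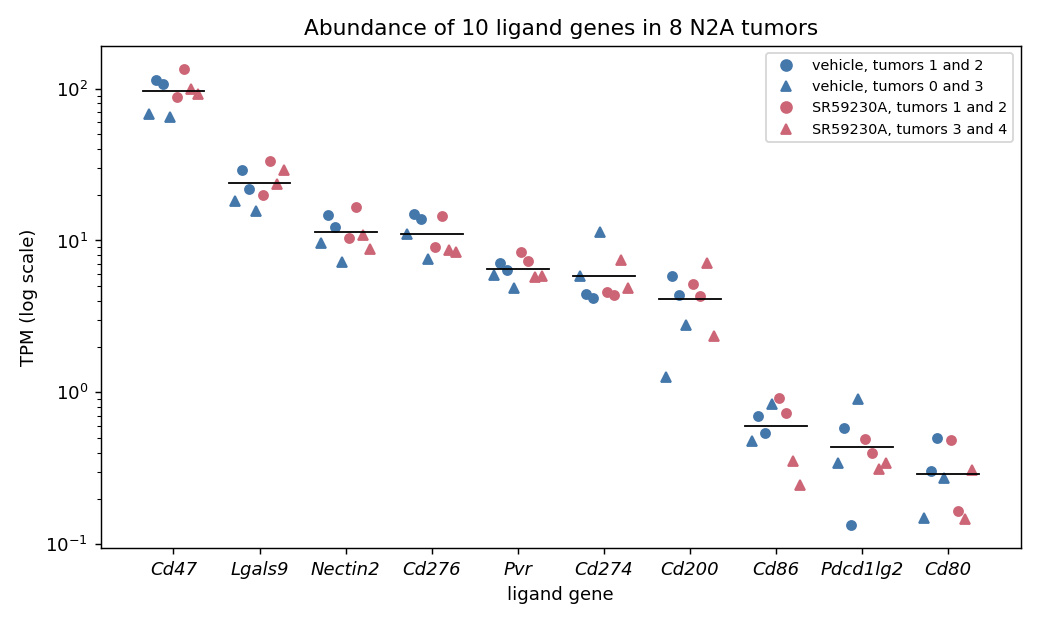
TPM (log scale) of the 10 ligand genes, ordered by mean; each symbol is 1 tumor, blue for vehicle and red for SR59230A, circles for tumors 1 and 2 and triangles for the others, and black lines are means of 8 tumors. Cd47 (64.7 to 135 TPM) lies above all others in every tumor, Cd274 (4.20 to 11.4 TPM) sits in the middle group, and Cd86, Pdcd1lg2 and Cd80 lie under 1 TPM.

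Neighbours in this order were compared within tumors by the log2 ratio of their TPM. Cd47 exceeded Lgals9 by 2.02 ± 0.18 (SD, n = 8), Lgals9 exceeded Nectin2 by 1.08 ± 0.28, Cd276 exceeded Pvr by 0.75 ± 0.34 and Cd200 exceeded Cd86 by 2.72 ± 0.92, each in 8 of 8 tumors. The other neighbours did not differ beyond their spread. Nectin2 was above Cd276 in 4 of 8 tumors (0.04 ± 0.19), Pvr above Cd274 in 6 of 8 (0.20 ± 0.71), Cd274 above Cd200 in 5 of 8 (0.60 ± 1.03), Cd86 above Pdcd1lg2 in 6 of 8 (0.51 ± 0.77) and Pdcd1lg2 above Cd80 in 7 of 8 (0.56 ± 1.15). The place of Cd200 rests partly on short noncoding transcripts. Counting protein-coding transcripts only, its mean fell to 1.34 ± 0.385 TPM, and Cd274 (5.88) then stood above Pvr (5.65 ± 1.06), although in only 3 of 8 tumors.

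Cd274 was measured at 16.6, 8.59, 8.39 and 39.1 CPM in vehicle tumors 0, 1, 2 and 3, and at 9.28, 8.24, 21.0 and 14.1 CPM in SR59230A tumors 1, 2, 3 and 4. The treatments overlapped, since each group held 2 tumors between 8 and 10 CPM and 2 above 14, and vehicle tumor 3 was the highest of all. The mean was 18.2 ± 14.5 CPM with vehicle and 13.1 ± 5.81 with SR59230A (SD, n = 4 each), a log2 fold change of -0.47 with a standard error of 0.51 (edgeR adjusted p = 0.996; exact two-sided permutation p = 0.657 over 70 assignments). Values within 2 standard errors ran from -1.49 to 0.55, a range that holds both a fall and a rise. In a fit that also held a term for tumors numbered 1 and 2 against the rest, it was -0.32 (standard error 0.27, edgeR adjusted p = 0.828). Without vehicle tumor 3 the log2 fold change was 0.23, and without SR59230A tumor 3 it was -0.80. It was 0.61 without vehicle tumors 0 and 3 and SR59230A tumor 4, the libraries rich in Gm10800, -0.05 without SR59230A tumors 1 and 2, which carried muscle transcripts, 0.05 in the tumors numbered 1 and 2 only and -0.67 in the other 4 only, with no call in any of these. In TPM the same gene had 5.79, 4.46, 4.20 and 11.4 with vehicle and 4.54, 4.36, 7.40 and 4.84 with SR59230A, again overlapping.

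Pdcd1lg2, the second ligand of PD-1, was near the lower limit of measurement, with 4 to 36 reads per tumor. It was at 0.442, 0.512, 0.121 and 1.38 CPM with vehicle and at 0.464, 0.340, 0.389 and 0.447 CPM with SR59230A. The highest value again belonged to vehicle tumor 3, and the SR59230A values lay inside the vehicle range. Its log2 fold change was -0.56 (standard error 0.60, edgeR adjusted p = 0.996) and turned to 0.18 without vehicle tumor 3. Reads of Cd274 outnumbered those of Pdcd1lg2 by 16.8 to 69.5 times within a tumor. The pair of genes lies on chromosome 19 of GRCm38, Cd274 (ENSMUSG00000016496) at 29367455 to 29388095 and Pdcd1lg2 (ENSMUSG00000016498) at 29410919 to 29471161, both on the plus strand.

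Cd276, a B7 family member without a settled receptor, had the smallest p of the ligands between treatments. It was at 28.3, 25.5, 26.0 and 22.7 CPM with vehicle and at 16.8, 25.2, 22.3 and 21.6 CPM with SR59230A. Lowest was SR59230A tumor 1, and the groups overlapped through vehicle tumor 3 and SR59230A tumor 2. Its mean was 25.6 ± 2.31 against 21.5 ± 3.48 CPM, a difference of -0.26 on the log2 scale (standard error 0.14, edgeR adjusted p = 0.996; exact permutation p = 0.0571, where the smallest possible is 0.0286). The direction was the same in all 21 alternatives run for Cd276, from -0.34 to -0.15, with none called.

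Cd47, the signal that restrains engulfment by macrophages, was at 103, 98.1, 96.5 and 112 CPM with vehicle and at 83.1, 116, 128 and 132 CPM with SR59230A. The SR59230A tumors held both the lowest value (tumor 1) and the 3 highest. The log2 fold change was 0.16 (standard error 0.15, edgeR adjusted p = 0.996). Cd200, the ligand of CD200R on myeloid cells, was at 1.77, 2.50, 2.08 and 2.72 CPM with vehicle and at 2.65, 2.14, 3.84 and 1.92 CPM with SR59230A. Only SR59230A tumor 3 exceeded the vehicle range, and without it the log2 fold change of 0.21 (standard error 0.28) became -0.02.

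Pvr and Nectin2, the ligands of TIGIT and its relatives, varied least. Pvr was at 12.6, 10.0, 9.96 and 11.5 CPM with vehicle and at 12.5, 10.9, 12.4 and 12.7 CPM with SR59230A, a coefficient of variation of 9.99% over the 8 tumors. Nectin2 was at 14.8, 16.6, 15.2 and 13.7 CPM with vehicle and at 12.8, 18.2, 17.4 and 15.1 CPM with SR59230A. Both sets of values overlapped between treatments. The log2 fold change was 0.14 (standard error 0.13) for Pvr and 0.07 (standard error 0.14) for Nectin2 (edgeR adjusted p = 0.996 for each). Within 2 standard errors the change ran from -0.13 to 0.41 for Pvr and from -0.20 to 0.36 for Nectin2, narrow ranges beside that of Cd274.

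Lgals9, the galectin bound by TIM-3, was at 22.4, 24.5, 19.1 and 22.3 CPM with vehicle and at 17.5, 27.4, 27.5 and 35.7 CPM with SR59230A. SR59230A tumors 2, 3 and 4 lay above every vehicle tumor and SR59230A tumor 1 below every one. The log2 fold change was 0.29 (standard error 0.20, edgeR adjusted p = 0.996; exact permutation p = 0.314).

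Cd80 and Cd86, the ligands of CD28 and CTLA-4, were scarce. Cd80 had 4 to 23 reads per tumor and lay at 0.368, 0.369, 0.604 and 0.651 CPM with vehicle and at 0.627, 0.276, 0.195 and 0.653 CPM with SR59230A. Cd86 had 15 to 49 reads and lay at 0.994, 0.984, 0.785 and 1.68 CPM with vehicle and at 1.20, 1.04, 0.730 and 0.515 CPM with SR59230A. The groups overlapped for both genes, with log2 fold changes of -0.16 (standard error 0.46) and -0.33 (standard error 0.37). Among the tumors numbered 1 and 2 both SR59230A tumors had more Cd86 than either vehicle tumor, and among the other 4 both had less. The interaction of treatment with tumor set was 1.45 on the log2 scale (standard error 0.61, edgeR adjusted p = 0.915). Cd86 was the 1 ligand with an unadjusted p under 0.05 for this interaction, against 5.09% of all genes tested, and by edgeR 0% of genes passed the adjusted threshold.

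**Figure D2:**
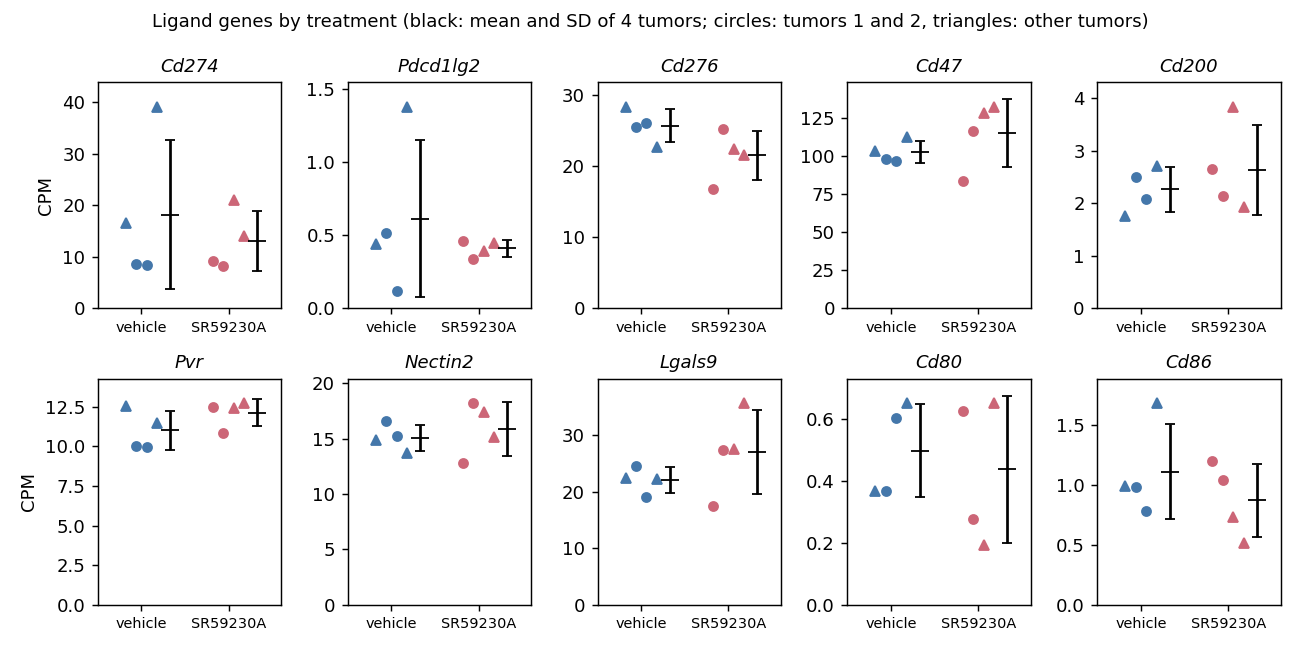
CPM of each ligand gene in vehicle (blue) and SR59230A (red) tumors; circles are tumors 1 and 2, triangles the others, and black marks are the mean and SD of 4 tumors. Every panel shows overlapping groups, and for Cd274 and Pdcd1lg2 the highest tumor is vehicle tumor 3 (39.1 and 1.38 CPM).

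Across the 10 ligands, 5 had a higher and 5 a lower fitted level with SR59230A, and none passed the threshold (adjusted p below 0.05 with a log2 fold change of 0.5 or more in either direction), against 0% of all genes by edgeR and 0.202% by DESeq2, which called 36 genes and no ligand. At an unadjusted p under 0.05 the count was 0 of 10 by either tool, where 4.63% of all genes were under it by edgeR. The log2 CPM of the groups overlapped for all 10, against 2.61% of genes tested whose groups did not overlap. The median log2 fold change was -0.04 over the ligands and 0.00 over all genes. The precision was uneven. Standard errors ran from 0.13 for Pvr to 0.60 for Pdcd1lg2, and that of Cd274 was the second largest although it had 278 to 1021 reads per tumor.

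**Figure D3:**
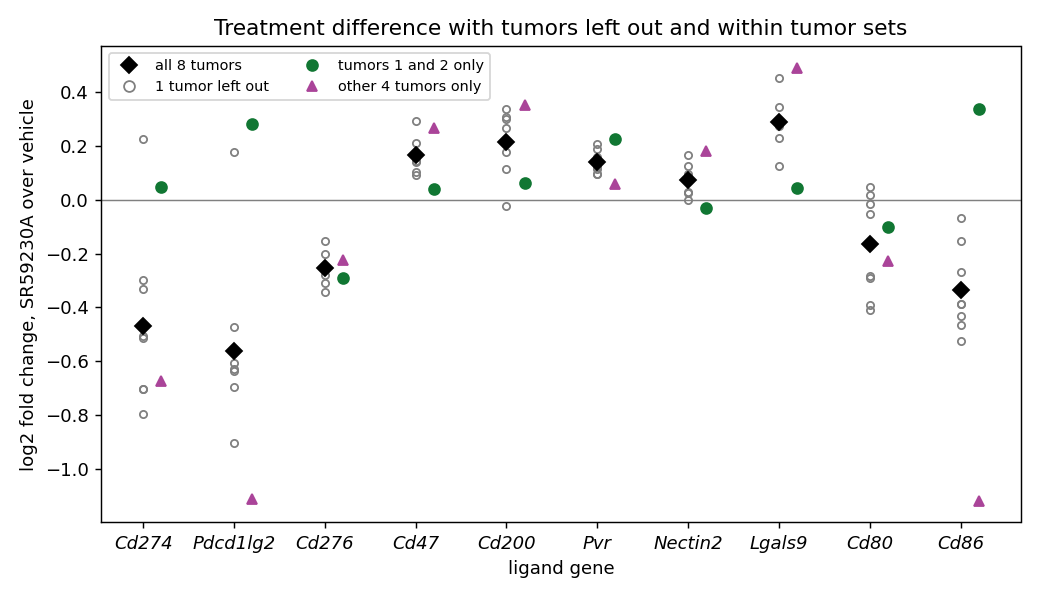
Log2 fold change of each ligand, SR59230A over vehicle: over all tumors (black), without 1 tumor at a time (grey), in tumors 1 and 2 only (green) and in the other 4 tumors only (purple). Values for Cd274 run from -0.80 to 0.23 with 1 tumor left out, and those for Cd276, Cd47, Pvr and Lgals9 stay on 1 side of zero in every setting drawn.

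Cd274 differed more between sets of tumors than between treatments. The labels do not say what the tumor numbers stand for. The tumors numbered 1 and 2 in each treatment were set against the other 4 in a fit with treatment as a term. The study's own RNA-seq display uses these numbers, and earlier results of these data had already placed these tumors apart. The p-values are therefore not those of a split fixed beforehand. Cd274 was at 8.24 to 9.28 CPM in the 4 tumors numbered 1 and 2 and at 14.1 to 39.1 CPM in the other 4, with no overlap. The mean was 8.62 ± 0.458 against 22.7 ± 11.3 CPM (SD, n = 4 each), a log2 difference of -1.36 (standard error 0.28, edgeR adjusted p = 0.042; DESeq2 adjusted p = 3.85e-05). It was the 1 ligand of 10 called, where edgeR called 5.42% of all genes in this comparison and 4.02% as lower in tumors 1 and 2, and the 1 ligand whose sets did not overlap, against 17.3% of all genes. It was also the 1 ligand with an unadjusted p under 0.05, against 28.5% of all genes.

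The other 9 ligands did not pass in this comparison. Pdcd1lg2 had a log2 difference of -0.80 (standard error 0.56, edgeR adjusted p = 0.381) and Cd47 one of -0.27 (standard error 0.12, edgeR adjusted p = 0.179), while Nectin2 (0.05), Cd276 (-0.02) and Cd80 (-0.03) were near 0. The median was -0.15 over the ligands and 0.01 over all genes. The same Cd274 reads were also set against the other 9 ligands within tumors, where no scaling between libraries enters. This ratio is no separate evidence, and it moves with those ligands too. In TPM, Cd47 was 0.46 and the median gene 0.50 log2 units higher in tumors 1 and 2. Cd274 equalled 5.04%, 2.38%, 2.52% and 10.9% of the summed TPM of the other 9 ligands in vehicle tumors 0 to 3 and 3.17%, 2.05%, 4.75% and 3.29% in SR59230A tumors 1 to 4. All 4 tumors numbered 1 and 2 (2.05% to 3.17%) lay below the other 4 (3.29% to 10.9%), although SR59230A tumors 1 and 4 were close.

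The call for Cd274 was lost when single tumors were left out. The adjusted p rose to 0.061 without vehicle tumor 0, 0.133 without vehicle tumor 1, 0.17 without vehicle tumor 2, 0.0817 without vehicle tumor 3, 0.097 without SR59230A tumor 2 and 0.102 without SR59230A tumor 3, while the log2 difference stayed between -1.53 and -0.98. Without vehicle tumors 0 and 3 and SR59230A tumor 4, the libraries rich in Gm10800, it was -1.29 (edgeR adjusted p = 0.118). Other measures were also lower in tumors 1 and 2, except in SR59230A tumor 1, whose shares lay within the range of the other 4 tumors. Mitochondrial transcripts took 1.30% to 3.61% of counts in tumors 1 and 2 and 3.10% to 7.47% in the others, olfactory receptor transcripts 0.106% to 0.221% and 0.197% to 0.381%, and transcripts with a retained intron 2.48% to 3.71% and 2.85% to 4.20%. Over the 8 tumors, log2 CPM of Cd274 rose with the olfactory receptor share (Pearson r = 0.93, exact permutation p = 0.0015, adjusted over the 3 shares 0.0045; Spearman rho = 0.90, exact permutation p = 0.0046) and with the mitochondrial share (r = 0.83, exact permutation p = 0.012, adjusted 0.017; rho = 0.81, exact permutation p = 0.022). For the retained intron share r was 0.65 (exact permutation p = 0.079, adjusted 0.079) and rho 0.88 (exact permutation p = 0.0072). Without vehicle tumor 3 and SR59230A tumor 3, the farthest from the median of each share, r was 0.70, 0.66 and 0.15 in the same order, so the last rests on these tumors. The permutations took the 8 tumors as exchangeable, although they lie in 2 sets that do not overlap in Cd274. Of 15192 genes, 29.6% had an unadjusted permutation p under 0.05 for their Pearson r with Cd274. The part of these shares in the Cd274 difference was not tested.

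**Figure D4:**
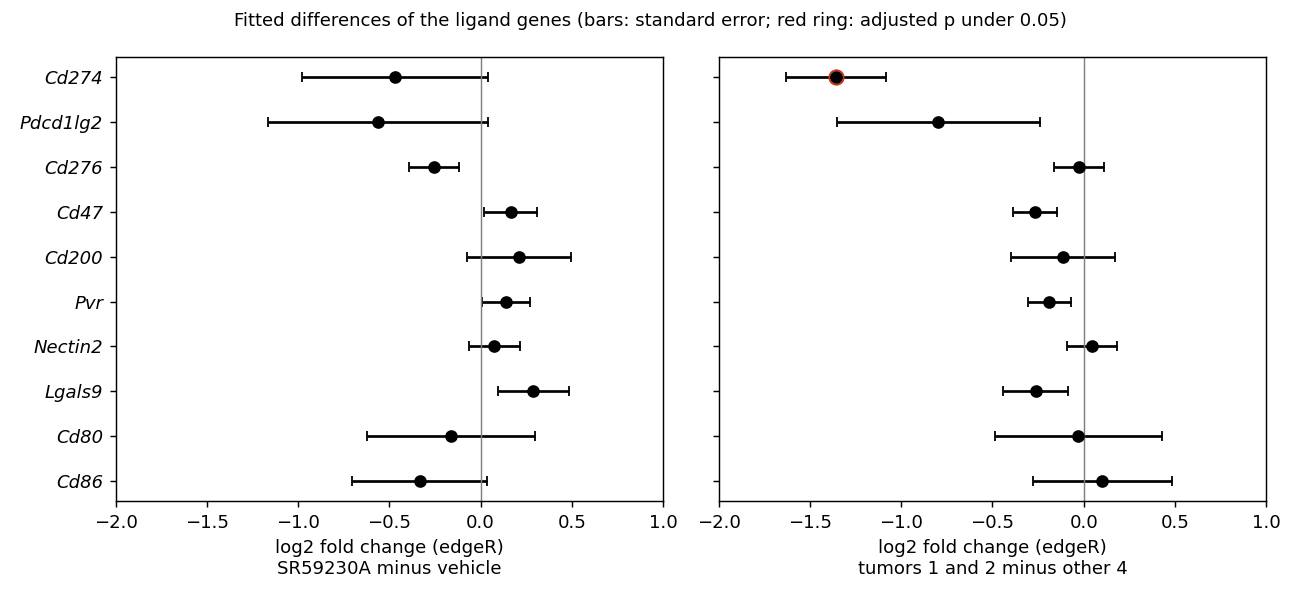
Fitted log2 differences of the 10 ligands with standard errors, between treatments (left) and between tumors numbered 1 and 2 and the other 4 (right); a red ring marks an edgeR adjusted p under 0.05. Cd274 lies at -0.47 on the left and at -1.36, ringed, on the right.

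The transcripts behind each gene's level were read next. Cd274 has 1 transcript, so its values carry no choice of isoform. For Cd47, Lgals9 and Nectin2 the annotated forms differ in coding sequence, which is printed here from GENCODE transcripts of GRCm38 to show what the counted forms encode differently. Cd47 (chromosome 16, plus strand) ends in a short cytoplasmic tail whose length is set by small exons of 25 bases (49908054 to 49908078) and 33 bases (49908703 to 49908735), shown in capitals after the shared 32-base exon.
Cd47-205: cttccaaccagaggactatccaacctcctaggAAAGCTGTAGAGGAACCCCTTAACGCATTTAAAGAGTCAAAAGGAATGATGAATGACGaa
Cd47-203: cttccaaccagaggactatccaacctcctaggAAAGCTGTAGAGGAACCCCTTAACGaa
Cd47-201: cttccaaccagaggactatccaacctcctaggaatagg
The form with both small exons, Cd47-205, held 67.2% ± 2.13 (SD, n = 8) of the gene's TPM, with 64.0% to 69.0% in every tumor. Cd47-201, without them, held 16.4% ± 2.97 and Cd47-203, with 1 of them, 5.76% ± 1.41. Cd47-203 was at 3.98% to 5.25% in the vehicle tumors and 5.44% to 7.87% in the SR59230A tumors, which did not overlap. This share was picked out of 47 transcripts after its values were seen and was given no test. For any single value, a fraction of 0.0286 of the 70 assignments of 4 tumors gives groups that do not overlap. How many of the 47 did so is not given here, so nothing is concluded from this share. The forms also differ in their ends, and Salmon's split between forms that share most of their sequence is an estimate.

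Lgals9 (chromosome 11, minus strand) has a 93-base exon, 78969714 to 78969806, in the linker between its carbohydrate-binding domains. It is shown in capitals with 20 bases of the exons on either side, which join directly in the shorter form.
Lgals9-203: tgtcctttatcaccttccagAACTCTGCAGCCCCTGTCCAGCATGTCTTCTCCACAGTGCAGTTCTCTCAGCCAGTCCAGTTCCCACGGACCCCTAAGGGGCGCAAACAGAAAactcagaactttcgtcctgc
Lgals9-202: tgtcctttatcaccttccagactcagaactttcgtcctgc
The form without the exon, Lgals9-202, held 88.5% ± 3.82 of the gene's TPM (SD, n = 8), and Lgals9-203 held 10.5% ± 3.57. The longer form ranged from 4.63% in SR59230A tumor 1 to 15.9% in vehicle tumor 1, and the treatments overlapped (11.6% ± 3.51 with vehicle and 9.31% ± 3.72 with SR59230A, SD, n = 4 each).

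Nectin2 (chromosome 7, minus strand) has alternative ends that replace the membrane-spanning and cytoplasmic parts. The last 20 shared bases are in lower case and the first 60 bases of each alternative coding exon in capitals, the exon at 19724484 to 19724869 for Nectin2-202 and at 19721353 to 19721506 for Nectin2-201.
Nectin2-202: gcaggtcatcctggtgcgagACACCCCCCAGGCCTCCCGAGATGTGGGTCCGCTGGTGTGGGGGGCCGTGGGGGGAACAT
Nectin2-201: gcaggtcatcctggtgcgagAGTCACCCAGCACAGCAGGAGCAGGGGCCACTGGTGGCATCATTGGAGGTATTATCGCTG
Nectin2-202 held 67.8% ± 2.52 of the gene's TPM and Nectin2-201 held 32.2% ± 2.52 (SD, n = 8), with 64.7% to 72.5% for the former in the 8 tumors. Of the remaining ligands, the protein-coding Cd200-202 (2347 bases) held 24.4% to 68.1% of Cd200 TPM while the noncoding Cd200-210 (281 bases) held 0% to 68.6% on 0 to 12.2 reads per tumor. Cd276 was split between Cd276-201 (61.8% ± 12.3, SD, n = 8) and Cd276-202 (37.0% ± 12.8), whose annotated difference is outside the coding sequence.

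**Figure D5:**
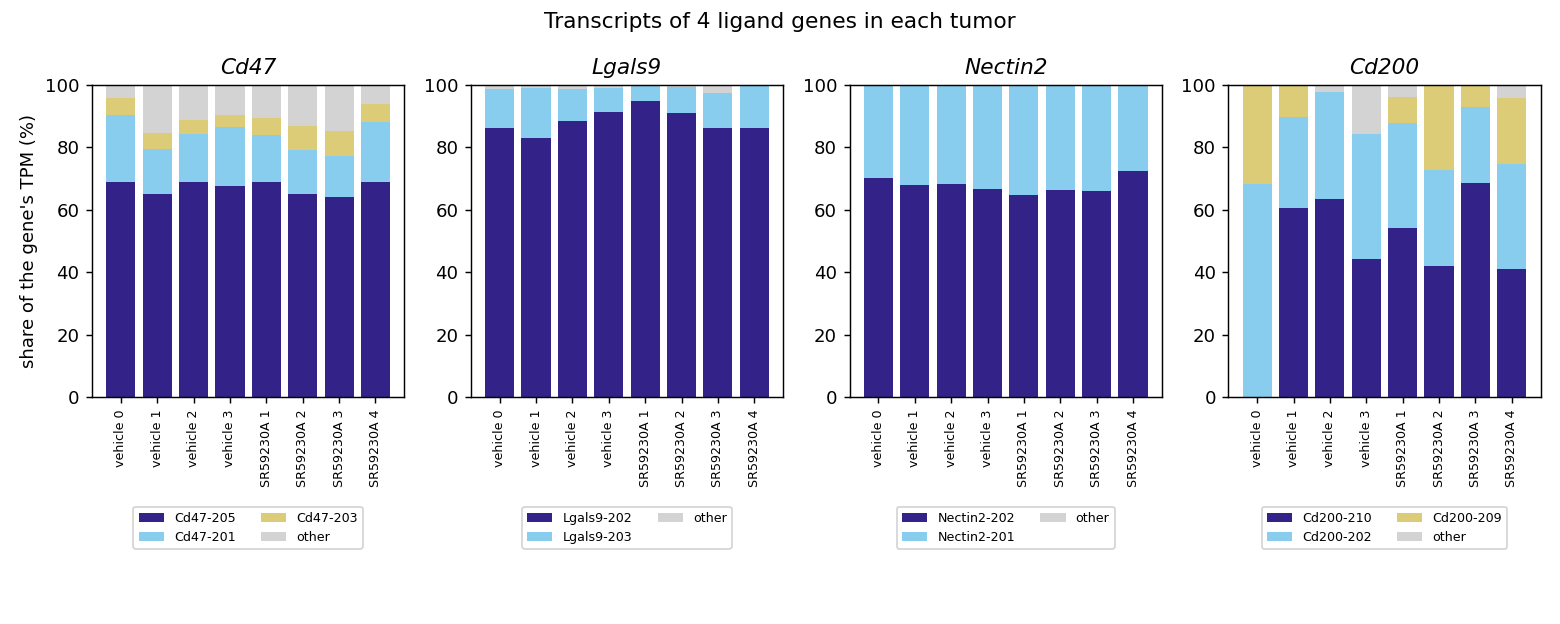
Share of each gene's TPM (%) by transcript in each of the 8 tumors, for Cd47, Lgals9, Nectin2 and Cd200. The main form of Cd47 (64.0% to 69.0%), Lgals9 (83.1% to 95.0%) and Nectin2 (64.7% to 72.5%) is the same in every tumor, whereas the noncoding Cd200-210 ranges from 0% to 68.6%.

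The receptors of these ligands were mostly at the lower limit of detection. Of 10 receptor genes, 4 passed the filter on low counts, and none was called between treatments, where edgeR called 0% of all genes. Sirpa, the receptor of CD47 on myeloid cells, was at 14.0 to 22.3 CPM. Cd200r1, the receptor of CD200, was at 2.23 to 6.40 CPM. Havcr2 (TIM-3, 0.512 to 1.53 CPM) and Tigit (0.307 to 2.11 CPM) were lower. Pdcd1 (PD-1) had 0 to 6 reads per tumor, Ctla4 0 to 8, Cd226 1 to 8, Cd28 1 to 6, Pvrig 0 to 5 and Cd96 0 to 4, below the filter. Tigit was lower in the tumors numbered 1 and 2, as Cd274 was, at 0.307, 0.483, 0.682 and 0.403 CPM against 1.36, 2.11, 1.70 and 1.10 CPM in the others (log2 difference -1.75, standard error 0.36, edgeR adjusted p = 0.042). It was the 1 of 4 tested receptors called by tumor set, where 5.42% of all genes were called. The call was lost without any 1 of vehicle tumors 0, 1, 2 and 3 and SR59230A tumors 2 and 3, with an edgeR adjusted p of up to 0.17 and a log2 difference between -1.99 and -1.54 over the 8 omissions.

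Genes known to act on PD-L1 did not pass the threshold either, where edgeR called 0% of all genes between treatments. Of 15 genes that control PD-L1 transcription or stability, 15 were tested, 9 had a higher and 6 a lower fitted level with SR59230A, and 0 were called (median log2 fold change 0.03, against 0.00 over all genes). Those with the smallest p were Cmtm4 (0.20, standard error 0.11) and Cmtm6 (0.20, standard error 0.12), which protect PD-L1 from degradation, and the most abundant were Stat3 (192 ± 43.5 against 158 ± 35.5 CPM) and Myc (108 ± 10.6 against 121 ± 9.17 CPM). Of 16 genes induced by interferon-gamma, 10 were higher and 6 lower with none called (median 0.06). The chemokine Cxcl9 was at 2.49 CPM in vehicle tumor 3 and at 0.181 to 0.589 CPM in the other 7 (log2 fold change -1.27, standard error 0.71, edgeR adjusted p = 0.996). B2m, the light chain of MHC class I, was highest in vehicle tumor 3 as well (247 CPM against 131 to 194 CPM), and Psmb8, an immunoproteasome subunit, was at 38.8 ± 6.84 CPM with vehicle and 39.3 ± 6.02 CPM with SR59230A. Their summed level was 288 to 447 CPM with vehicle and 268 to 373 CPM with SR59230A, with 447 CPM in vehicle tumor 3.

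Of the genes next to Cd274 on chromosome 19, 5 were tested and 0 called between treatments, where edgeR called 0% of all genes. Insl6, a relaxin family gene, differed by 0.58 on the log2 scale (standard error 0.24, edgeR adjusted p = 0.996), Ermp1, a peptidase of the endoplasmic reticulum, -0.22 (standard error 0.16) and Plgrkt, a plasminogen receptor, 0.18 (standard error 0.12). Among 16 other checkpoint genes, 11 were tested and 0 called. Fgl1, a ligand of LAG-3, differed by 0.84 (standard error 0.44) and Icosl, the ligand of ICOS, 0.28 (standard error 0.16). Cd24a (124 ± 8.23 against 107 ± 18.3 CPM), a signal to myeloid Siglec receptors, and Lgals3 (20.2 ± 4.89 against 20.5 ± 7.55 CPM) were the most abundant of this list.

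Markers of the cells that could carry these ligands were read beside them. The summed level of 8 macrophage markers was 222 to 529 CPM with vehicle and 340 to 540 CPM with SR59230A. None of the 8 was called between treatments, where edgeR called 0% of all genes. By tumor set, C1qa was 0.75 and C1qc 0.82 log2 units higher in tumors 1 and 2 (edgeR adjusted p = 0.042 for both), the opposite direction to Cd274. These were the 2 of 8 macrophage markers called, where 5.42% of all genes were called, and the median log2 difference of the 8 was 0.48. Both calls were lost without any 1 of vehicle tumors 0, 1, 2 and 3 and SR59230A tumors 2 and 3, with edgeR adjusted p-values of up to 0.17. The most abundant, Mrc1, was at 441 CPM in vehicle tumor 3, 439 CPM in SR59230A tumor 3 and 156 to 343 CPM in the others, a log2 difference of -0.81 (edgeR adjusted p = 0.0896). Fibroblast markers summed to 418 to 782 CPM with vehicle and 563 to 1021 CPM with SR59230A, and to 418 to 1021 CPM in tumors 1 and 2 against 563 to 782 CPM in the others. Of the 5 fibroblast markers, 1 was called by tumor set, Dcn, which was lower in tumors 1 and 2 (log2 difference -1.26, edgeR adjusted p = 0.0471), and the median log2 difference of the 5 was -0.11. The call for Dcn was lost in 7 of the 8 omissions of a single tumor, all but that of SR59230A tumor 4, with an edgeR adjusted p of up to 0.171. The 6 T cell markers summed to 1.33 to 3.75 CPM with vehicle and 1.19 to 1.31 CPM with SR59230A, with 3.75 CPM in vehicle tumor 3, and 3 of them passed the filter on low counts. Neutrophil markers summed to 2.72 to 5.51 CPM with vehicle and 3.33 to 24.5 CPM with SR59230A, the latter in SR59230A tumor 3. The 8 neuroblastoma markers summed to 596 to 775 CPM with vehicle and 440 to 601 CPM with SR59230A, and all 8 had lower fitted levels with none called (Th -0.80 with a standard error of 0.25 and Mycn -0.80 with one of 0.26, edgeR adjusted p = 0.996 for both). Endothelial (73.2 to 115 CPM), dendritic cell (22.7 to 31.2 CPM) and B cell markers (0.785 to 7.25 CPM) gave no call in either comparison, and skeletal muscle markers reached 2080 CPM in SR59230A tumor 1. The part of these cells in the ligand levels was not tested.

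Genes whose log2 CPM followed Cd274 over the 8 tumors were listed last. Among the other ligands Pdcd1lg2 was most like it (Pearson r = 0.77, exact permutation p = 0.0393, adjusted over all genes 0.146; Spearman rho = 0.50, exact permutation p = 0.216), and r was 0.37 without vehicle tumor 3 and SR59230A tumor 3, the 2 tumors farthest from the median of Cd274. For the remaining 8 ligands r ran from -0.26 (Nectin2) to 0.45 (Pvr). On log2(TPM + 1) the r of Pvr was -0.78 and that of Cd47 -0.68, so the direction depended on the scale. Over all genes the 5 protein-coding genes with the highest r were Spats1, Tmem169, Zmym6, Tbx18 and Ulk3 (r from 0.989 to 0.996, adjusted exact permutation p from 0.00454 to 0.0146; rho from 0.786 to 1.00). Each kept an r of 0.96 to 0.989 without the 2 farthest tumors. These 5 are among 668 genes with an r above 0.9, and 29.6% of 15192 genes had an unadjusted permutation p under 0.05. The tumors lie in 2 sets that do not overlap in Cd274, and within either set 4 tumors are too few for a correlation. On the TPM scale the r of Spats1 was 0.06 and that of Tmem169 -0.66, while Tbx18 (0.97), Ulk3 (0.88) and Zmym6 (0.61) stayed positive.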

How the data were processed

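The authors quantified paired reads of total RNA with Salmon. For each tumor they deposited transcript tables of estimated counts, TPM and effective lengths in bases. The transcriptome was GRCm38 by the Methods and GRCm39 by the submitters' processing notes. They also deposited DESeq2 normalized counts per symbol, a signal scaled between libraries, used here only as an alternative. Of 116747 transcripts 115685 matched GENCODE annotation of GRCm38 by identifier. Estimated counts were summed per gene, rounded, filtered with edgeR's default, scaled by TMM and tested with edgeR 4.0.16 (R 4.3.3), quasi-likelihood test and Benjamini-Hochberg adjustment over all genes. Alternatives used DESeq2 1.42.0, limma 3.58.1, other scalings and tumors left out. Log2 CPM carried a pseudocount of 0.5. Scripts were tested on simulated counts. Named genes were the 10 ligands, and of each list the called members, the 2 smallest p and the 2 highest TPM, besides all receptors and the 5 protein-coding genes most correlated with Cd274. The ligands, lists and tumor sets were chosen with earlier results of these data known. The sources used here name no batches, and the tests set each difference against the spread between these 8 libraries. The legend of the study's RNA-seq figure describes sequencing in duplicate. The labels list 8 separately named tumors, 4 per treatment, and do not say how these descriptions relate. The n of 4 follows the labels.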

Additional observations from a re-analysis of the deposited data

Results flagged for a closer look

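In 4 tumors of a treatment, the gap of the highest or lowest tumor to its nearest neighbor was compared with the range of the group, for each ligand in CPM and in TPM (40 groups). Chance flags about 1 in 20 groups, and 2 of the 40 were flagged, no more than chance gives. Both were in TPM and neither in CPM. Cd274 was at 7.40 TPM in SR59230A tumor 3, and at 4.36 to 4.84 TPM in the other 3 SR59230A tumors. Cd276 was at 14.6 TPM in SR59230A tumor 2, and at 8.43 to 9.10 TPM in the other 3.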

How the results depend on the processing

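No ligand was called between treatments in any of the alternatives run, and the adjusted p of Cd274 stayed between 0.639 and 1. The number of genes called over all genes was 0 by edgeR, 36 by DESeq2, 5 in the other 4 tumors only, and 0 to 1 with single tumors left out. The log2 fold change of Cd274 between treatments was -0.80 to 0.23 with single tumors left out, 0.047 in tumors 1 and 2 only and 0.61 without vehicle tumors 0 and 3 and SR59230A tumor 4. In the latter 2 settings, in that order, Pdcd1lg2 had 0.28 and 0.29 and Cd86 0.34 and 0.18, and Nectin2 had -0.032 in tumors 1 and 2 only. With single tumors left out, Pdcd1lg2 ran from -0.90 to 0.18, Cd200 from -0.025 to 0.34 and Cd80 from -0.41 to 0.047. The cause was not tested.

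With the replicate number as a block, the log2 fold change of Cd274 was -0.28 and 0 genes were called. The numbers mark no stated pairing: deviations of same-numbered tumors correlated at 0.04, 0.67 and 0.57 for numbers 1, 2 and 3, and not every tumor correlated best with its own number.

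For tumors 1 and 2 against the other 4, genes called numbered 824, against 1710 by DESeq2 and 6 without the libraries rich in Gm10800. They numbered 7408 of 14634 tested in limma on log2(TPM + 1) and 0 to 1626 with single tumors left out. Ligands called were 1, against 0 without the Gm10800 libraries and 0 to 1 with single tumors left out. In limma on TPM, 3 of the 8 ligands tested were called. Cd274 was lower in tumors 1 and 2. Cd276 (0.50) and Nectin2 (0.51) were higher there, near the median of 0.50 over all genes. Cd274 was at -1.29 without the Gm10800 libraries and from -1.53 to -0.98 with single tumors left out. TPM and the effective length offset were chosen after seeing the data. In TPM the median of all genes moved to 0.50. Cd274 (-0.57) was 1.07 below it on the log2 scale, and Cd276 (0.50), Cd47 (0.46), Cd200 (0.59), Pvr (0.33) and Lgals9 (0.27) changed sign but lay within 0.24 of it. Without a filter Cd276 was at 0.025 and Cd80 at 0.029, and with the length offset Cd276 was at 0.0062, Cd200 at 0.13 and Cd80 at 0.11. Without the Gm10800 libraries Pdcd1lg2 was at 0.0077, Nectin2 at -0.19 and Cd80 at 1.15. With single tumors left out, Cd276 ran from -0.14 to 0.090, Cd200 from -0.27 to 0.14, Nectin2 from -0.036 to 0.16, Cd80 from -0.30 to 0.32 and Cd86 from -0.15 to 0.43.

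In TPM, r with Cd274 was -0.68 for Cd47, -0.18 for Cd200, -0.78 for Pvr, -0.65 for Lgals9 and -0.37 for Cd80. Without the 2 farthest tumors it was 0.16 for Cd276, -0.73 for Cd200 and -0.38 for Cd86. Pvr ranked 6 by coding transcripts. Pdcd1lg2, Cd80 and Cd86 rest on 4 to 49 reads per tumor, which limits what a difference could show.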
